A study of Mus musculus with 8 samples.

Results

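The genes described here are the signals and regulators of the hair cycle that the array reads in mouse epidermis early in regrowth. They were chosen by gene name, by a rule set with earlier results of these data known. It takes every probe set whose symbol belongs to the numbered Wnt, Fzd, Sfrp, Dkk or Bmp genes. To these it adds 28 named genes of the Wnt, Hedgehog, BMP, ectodysplasin and FGF pathways and of the follicle stem cells and matrix. The rule found 112 of 22690 probe sets, which name 75 of 13201 genes, and 50 of these 75 genes were expressed highly enough to be tested. It also takes in Bmp1, which encodes a protease, and Bmp2k, which encodes a kinase, and neither is a BMP ligand.

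Total RNA came from epidermal sheets, freed from the dermis with dispase, of skin taken 3 days post depilation (3dpd), when plucking has started a new hair cycle. The 2 WT animals were C57bl/6 mice, the 3 Tcl1-/- animals lacked Tcl1, and the 3 K14-TCL1 animals carried a TCL1 transgene, driven by the keratin 14 promoter in basal KCs, on the same Tcl1-/- background. All animals were adult and depilated, and no source used here states an age in days. Per genotype the methods count 3 mice with a chip each, and of the WT chips 2 were analysed here.

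Hair follicles pass through growth (anagen), regression and rest. Entry into anagen depends on Wnt signals, which stabilise beta-catenin through Frizzled receptors, and on the loss of BMP signals that keep the stem cells of the bulge at rest. Sonic hedgehog from the growing epithelium then drives proliferation of the matrix, whose transcription factors switch on the hair keratins.

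Each array gave RMA intensities, whose precision is limited by the number of arrays. Arrays of one genotype correlated at 0.998 to 0.999 and arrays of different genotypes at 0.995 to 0.996. A probe set was tested when its highest genotype mean reached 5 on the log2 scale, an intensity of 32, and each gene was read by its brightest probe set. Differences are between genotype means on the log2 scale, are given ± SE and were tested with limma, with p adjusted over all 9731 genes tested. A gene was called at an adjusted p under 0.05. In whole sheets fewer cells of a type and less RNA per cell cannot be told apart, and strain, litter or preparation cannot be told apart from genotype. Of 10 dermal fibroblast and papilla markers, 7 lay below the filter, and the summed intensity of all 10 ran from 205 to 212 in Tcl1-/-, 194 to 208 in K14-TCL1 and 201 to 204 in WT. Endothelial markers (4 of 5) and mast cell markers (4 of 4) also lay below it. Of 4 smooth muscle markers only 1 did. Smooth muscle sums were 134 to 152 in Tcl1-/-, 143 to 154 in K14-TCL1 and 155 to 161 in WT. In each mutant genotype 1 of the 3 tested was called lower than WT (33.3%, against 26.6% and 21.5% of all genes). In the same order, melanocyte markers (5 of 6 on the array, 2 of them below the filter) summed to 224 to 237, 237 to 251 and 198 to 202. Of the 3 tested, 1 was called higher than WT in each mutant genotype (33.3%, against 26.6% and 21.5% of all genes). None was called between the mutant genotypes (against 26.6%). Inner root sheath markers (6 of 8 on the array, 3 of them below the filter) summed to 1875 to 1976, 1603 to 1889 and 1946 to 2000. None of the 3 tested was called in any comparison (against 21.5% to 26.6% of all genes). The 5 basal KC markers were bright in every array. Their summed intensity was lower in both mutant genotypes (36027 to 36422 in Tcl1-/- and 36421 to 36770 in K14-TCL1) than in WT (39224 to 39571). Of the 5, 1 was called lower in Tcl1-/- (20%, against 26.6% of all genes) and 3 in K14-TCL1 (60%, against 21.5%). The 5 suprabasal KC markers summed to 57494 to 57927 in Tcl1-/-, 52177 to 53123 in K14-TCL1 and 55972 to 57042 in WT. Against WT, 1 was called higher and 1 lower in Tcl1-/-, and 2 lower in K14-TCL1 (40% in each). In Tcl1-/- vs K14-TCL1, 4 were called higher (80%, against 26.6%).

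More members were higher than lower in Tcl1-/- than in WT. In that comparison 22 of the 50 tested members were called (44%), against 26.6% of all genes tested. Of these, 17 were higher (14.4% of all genes) and 5 were lower (12.2% of all genes). The 17 include Wnt2 and Gli2, whose WT means lay under the level needed for testing. These genes passed the filter only through the mutant genotypes, so they could be called here only as higher. The median log2 difference over the tested members was 0.13, against 0.0085 over all genes. Wnt2, Fzd7, Fst, Foxc1 and Lhx2 differed most, and Wnt5a and Dkk3 were the members with the largest negative differences.

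In K14-TCL1 against WT, 17 members were called (34%), against 21.5% of all genes. Of these, 13 were higher (11.7% of all genes) and 4 were lower (9.84% of all genes), and the median difference was 0.077 against 0.010. Here too the higher members include Wnt2 and Gli2, which passed the filter only through the mutant genotypes. Without WT replicate 1 the median was 0.10, and without WT replicate 2 it was 0.022. Each of these fits left 1 WT array and called fewer members, and this was not compared with the share of all genes. Wnt2, Lhx2, Fzd7 and Gli2 led the higher members, and Wnt3, Wnt7b, Id3 and Wnt10a were the 4 lower ones.

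In Tcl1-/- against K14-TCL1, which share the deletion and differ by the transgene, 21 members were called (42%), against 26.6% of all genes. Here 18 were higher in Tcl1-/- (13.9% of all genes) and 3, Wnt5a, Wnt16 and Bmp7, were lower (12.7% of all genes). The median difference was 0.079, against 0.000056 over all genes. The comparisons share arrays, so their counts do not add up as separate evidence.

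**Figure D1:**
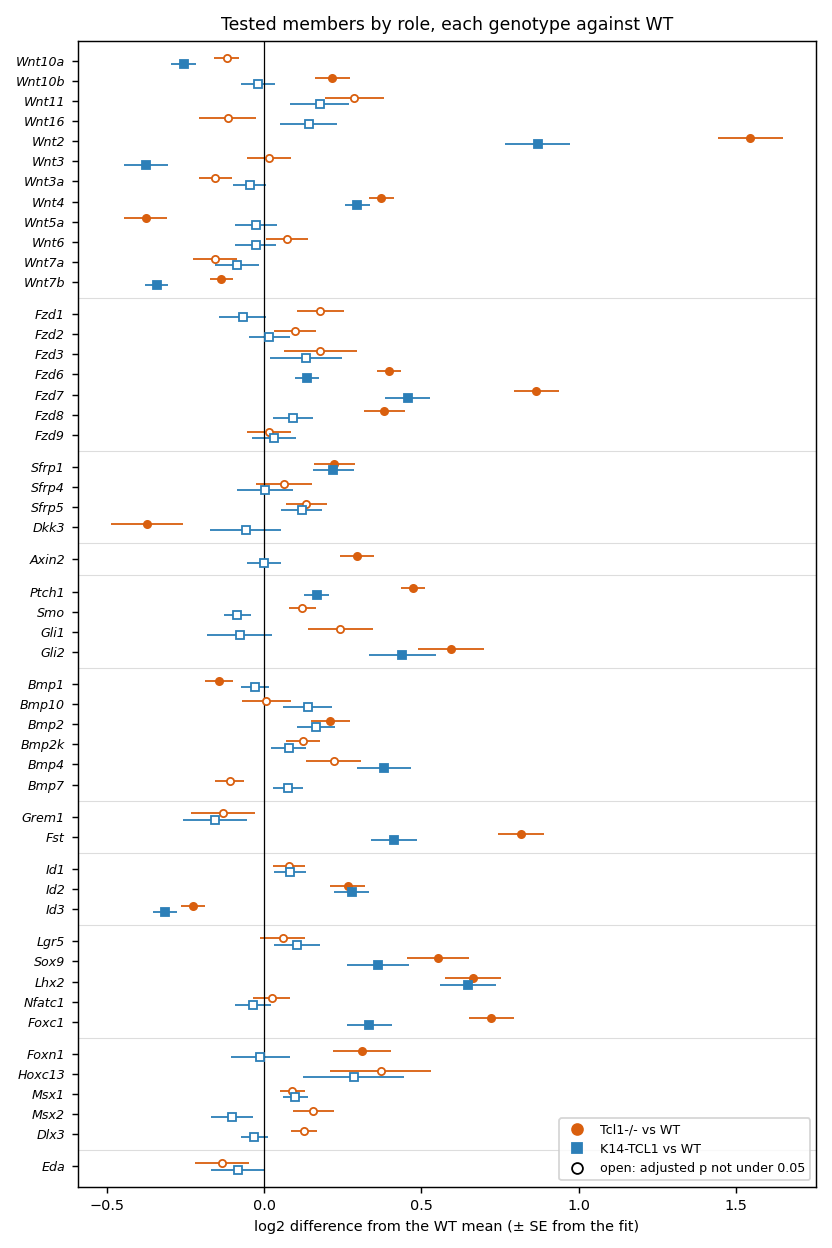
Log2 difference from WT (horizontal axis, ± SE) of the 50 tested members in Tcl1-/- and in K14-TCL1, grouped by role, with filled points for called members. Most called members lie to the right of 0 in both genotypes, Wnt2 lies farthest right at 1.54 in Tcl1-/-, and Wnt5a, Dkk3, Wnt3 and Wnt7b lie to the left in at least 1 genotype.

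Members called in any of the comparisons numbered 32 of 50 (64%), against 43.1% of all genes. Those called in all 3 numbered 7, against 4.82% of all genes. For 6 of them, Wnt2, Fzd7, Fst, Foxc1, Ptch1 and Fzd6, the level was highest in Tcl1-/-, intermediate in K14-TCL1 and lowest in WT, an order that 1.75% of all genes showed with all 3 comparisons called. Among the 6, Wnt2 passed the filter only through the mutant genotypes. Wnt7b had another order, with WT highest and K14-TCL1 lowest.

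The windows of 250 bases before the transcription start are shown for those of the 7 that RefSeq's promoter table holds (GRCm38.p6), because these members moved together over the genotypes. Letters in capitals mark GGCGCC, the GC-rich core bound by SMAD1 and SMAD5, and each window reads 5′ to 3′ on the strand of its gene: Foxc1 at chr13:31806396-31806645 (plus strand), Fzd7 at chr1:59481897-59482146 (plus strand), Ptch1 at chr13:63565736-63565985 (minus strand) and Wnt2 at chr6:18030446-18030695 (minus strand).
Foxc1: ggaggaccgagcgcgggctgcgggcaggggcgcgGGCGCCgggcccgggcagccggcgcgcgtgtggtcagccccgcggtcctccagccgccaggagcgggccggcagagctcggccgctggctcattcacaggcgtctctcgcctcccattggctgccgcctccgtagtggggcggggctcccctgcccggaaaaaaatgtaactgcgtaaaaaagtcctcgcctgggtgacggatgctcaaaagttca
Fzd7: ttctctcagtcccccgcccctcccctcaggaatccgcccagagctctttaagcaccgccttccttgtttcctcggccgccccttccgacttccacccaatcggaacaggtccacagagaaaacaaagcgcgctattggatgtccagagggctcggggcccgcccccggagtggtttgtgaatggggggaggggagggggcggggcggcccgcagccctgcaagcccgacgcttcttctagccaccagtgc
Ptch1: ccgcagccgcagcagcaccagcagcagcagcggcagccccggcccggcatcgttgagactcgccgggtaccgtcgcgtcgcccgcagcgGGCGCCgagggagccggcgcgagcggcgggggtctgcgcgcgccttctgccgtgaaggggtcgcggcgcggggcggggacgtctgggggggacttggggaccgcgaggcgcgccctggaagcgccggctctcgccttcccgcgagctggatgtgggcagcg
Wnt2: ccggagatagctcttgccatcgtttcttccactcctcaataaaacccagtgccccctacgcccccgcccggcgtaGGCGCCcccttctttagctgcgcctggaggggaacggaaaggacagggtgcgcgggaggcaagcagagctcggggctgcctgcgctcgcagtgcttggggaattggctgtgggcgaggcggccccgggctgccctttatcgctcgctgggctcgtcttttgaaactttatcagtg
GGCGCC, which reads the same on both strands, began 216 bases before the start of Foxc1, 161 before that of Ptch1 and 175 before that of Wnt2, and was not among the letters of the Fzd7 window. It was in 16 of 57 windows of the 50 members with an entry (28.1%) and in 9.59% of all 32851 windows. The 16 windows belong to 15 genes, because overlapping windows of Lef1 hold the same site. GGCGCC has only G and C, and windows were not matched for GC content, so an excess of SMAD sites was not tested. The TCF/LEF core TCAAAG, searched on both strands, was in 6 of the 57 member windows (10.5%) and in 13.8% of all windows. The GLI site GACCACCCA, also searched on both strands, was in none of the 57 and in 0.225% of all windows. These counts describe letters in short windows, and binding was not measured.

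Of the 19 Wnt ligands, which are secreted and bind Frizzled receptors on nearby cells, 12 were tested, and they moved in both directions. Against WT, 3 were higher and 2 lower in Tcl1-/- (41.7%, against 26.6% of all genes). In K14-TCL1, 2 were higher and 3 lower (41.7%, against 21.5%). Wnt2, a ligand that can act through beta-catenin, had intensities of 55.4, 59.7 and 53.8 in Tcl1-/-, 36.1, 35.0 and 34.7 in K14-TCL1 and 16.7 and 22.2 in WT. The groups did not overlap, and both WT arrays lay under the level needed for testing, so Wnt2 was tested through the genotypes in which it was high. The log2 differences were 1.54 ± 0.10 for Tcl1-/- vs WT (adjusted p 2.54e-05), 0.87 ± 0.10 for K14-TCL1 vs WT (0.000804) and 0.68 ± 0.093 for Tcl1-/- vs K14-TCL1 (0.00153).

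Wnt4, a ligand made by epidermal KCs, had intensities of 1705, 1694 and 1639.6 in Tcl1-/-, 1592, 1638 and 1545 in K14-TCL1 and 1290.4 and 1303 in WT. Both mutant genotypes lay above WT with no overlap, by 0.37 ± 0.040 (adjusted p 0.000304) and 0.30 ± 0.040 (0.00158), and they did not pass the test against each other (0.078 ± 0.036, 0.146). Wnt5a, a ligand that acts largely outside the beta-catenin pathway, had intensities of 119, 112 and 129 in Tcl1-/-, 158, 149.8 and 149.9 in K14-TCL1 and 163 and 148 in WT. It was thus lower in Tcl1-/- alone, by -0.38 ± 0.068 against WT (0.00469) and by -0.35 ± 0.061 against K14-TCL1 (0.00447), while K14-TCL1 vs WT was -0.026 ± 0.068. The other Wnt5a probe set above the filter was not called in any comparison (-0.08, -0.10 and 0.01).

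A further set of ligands was lowest in K14-TCL1. Wnt3, which signals through beta-catenin, had intensities of 58.0, 62.7 and 67.2 in Tcl1-/-, 46.7, 51.1 and 45.4 in K14-TCL1 and 61.1 and 62.6 in WT. Every K14-TCL1 array lay below all others, with differences of -0.37 ± 0.071 for K14-TCL1 vs WT (adjusted p 0.0076, and 0.0564 without WT replicate 2) and 0.39 ± 0.063 for Tcl1-/- vs K14-TCL1 (0.00328). The only Wnt3 probe set is of the _x_at type, which can share sequence with other transcripts, so no other probe set could check it. Wnt7b, a ligand of follicle and epidermal KCs, had intensities of 882, 833 and 864 in Tcl1-/-, 751, 746 and 739 in K14-TCL1 and 944 and 945 in WT. Its groups did not overlap, and K14-TCL1 was lower than WT by -0.34 ± 0.037 (0.000519) and Tcl1-/- higher than K14-TCL1 by 0.21 ± 0.033 (0.00331). The smaller difference between Tcl1-/- and WT, -0.14 ± 0.037 (0.0292), was lost without Tcl1-/- replicate 2 or 3 or either WT array, with adjusted p from 0.0614 to 0.125, and a second Wnt7b probe set was not called there (-0.05, 0.752).

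Wnt10a, whose human counterpart is mutated in ectodermal dysplasias that affect hair and teeth, had intensities of 742, 714 and 718 in Tcl1-/-, 662, 639.9 and 677 in K14-TCL1 and 795 and 778 in WT. It had the same order as Wnt7b, WT above Tcl1-/- above K14-TCL1, with K14-TCL1 below WT by -0.25 ± 0.040 (adjusted p 0.00333) and Tcl1-/- below WT by -0.12 ± 0.040 (0.0578). Tcl1-/- vs K14-TCL1 was 0.14 ± 0.036 (0.0244), a call lost without Tcl1-/- replicate 1 or 3 or K14-TCL1 replicate 1 or 2 (0.0513 to 0.0870). Wnt10b, whose product promotes anagen in mice, had intensities of 48.9 to 52.1 in Tcl1-/-, 40.5 to 45.4 in K14-TCL1 and 42.8 and 43.4 in WT. Tcl1-/- exceeded WT by 0.22 ± 0.055 (0.0198, and 0.0628 to 0.103 without Tcl1-/- replicate 1 or either WT array) and K14-TCL1 by 0.24 ± 0.049 (0.00927). Wnt16 was lower in Tcl1-/- (51.0, 59.6 and 60.6) than in K14-TCL1 (70.0, 61.4 and 73.1) by -0.26 ± 0.081 (0.0482), close to the threshold, and the call was lost on leaving out any 1 array except K14-TCL1 replicate 2 (0.0548 to 0.138).

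The remaining 4 tested ligands, Wnt11, Wnt3a, Wnt6 and Wnt7a, were called in no comparison. Their differences from WT ran from -0.16 for Wnt7a to 0.29 for Wnt11, both in Tcl1-/-. Wnt1, Wnt2b, Wnt5b, Wnt8a, Wnt8b, Wnt9a and Wnt9b lay below the filter, with intensities of 9.37 to 31.0.

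**Figure D2:**
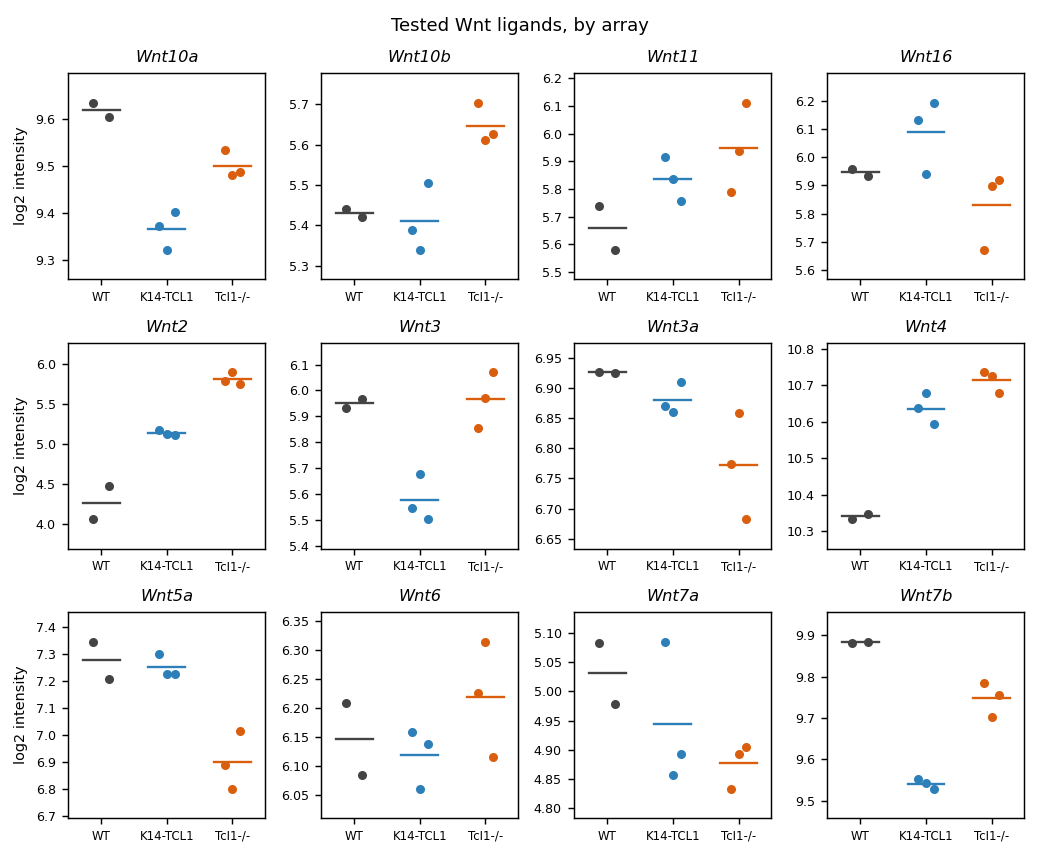
Log2 intensity (vertical axis, own scale in each panel) of the 12 tested Wnt ligands, with 1 point for each array and a line at the mean of each genotype. Wnt2 and Wnt4 were low in WT, Wnt5a was low in Tcl1-/-, and Wnt3, Wnt7b and Wnt10a were lowest in K14-TCL1.

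Of the 9 Frizzled receptors, which pass the Wnt signal into the cell, 7 were tested and every call was an increase. Against WT, 3 were called in Tcl1-/- (42.9%, against 26.6% of all genes) and 2 in K14-TCL1 (28.6%, against 21.5%). In Tcl1-/- vs K14-TCL1, 4 were called (57.1%, against 26.6%). Fzd7 had intensities of 154, 148 and 171 in Tcl1-/-, 118, 121 and 116 in K14-TCL1 and 91.8 and 81.1 in WT. The 3 genotypes did not overlap, and the differences were 0.87 ± 0.071 for Tcl1-/- vs WT (a ratio of 1.82, adjusted p 7.02e-05), 0.46 ± 0.071 for K14-TCL1 vs WT (0.00336) and 0.41 ± 0.064 for Tcl1-/- vs K14-TCL1 (0.00277). A dimmer Fzd7 probe set moved less, by 0.27 ± 0.065 in Tcl1-/- vs WT (0.019), and was not called in K14-TCL1 vs WT (0.15, 0.159) or Tcl1-/- vs K14-TCL1 (0.13, 0.154).

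Fzd6, a receptor that orients hairs in the plane of the mouse skin, had intensities of 1040.4, 1059 and 1069 in Tcl1-/-, 905, 876 and 865 in K14-TCL1 and 813 and 791 in WT. Replicates lay close together, and Tcl1-/- exceeded WT by 0.40 ± 0.038 (adjusted p 0.000154) and K14-TCL1 by 0.26 ± 0.034 (0.00115). The difference of K14-TCL1 from WT was 0.14 ± 0.038 (0.0333), was lost without Tcl1-/- replicate 1 or 2, K14-TCL1 replicate 1 or either WT array (0.0526 to 0.181), and was 0.01 in the other Fzd6 probe set (0.952). Fzd8 had intensities of 103, 113 and 108 in Tcl1-/-, 86.1, 88.3 and 89.6 in K14-TCL1 and 88.6 and 76.9 in WT. It was higher in Tcl1-/- than in WT (0.38 ± 0.065, 0.00347) and than in K14-TCL1 (0.29 ± 0.058, 0.00805), whose arrays overlapped those of WT. Fzd1 passed between Tcl1-/- and K14-TCL1 (0.25 ± 0.067, 0.029, and 0.0525 to 0.0924 without Tcl1-/- replicate 2 or 3 or K14-TCL1 replicate 1 or 2) and not against WT.

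Fzd2 and Fzd3 were not called by their brightest probe sets, but by others. In Tcl1-/- a second Fzd2 probe set exceeded WT by 0.39 ± 0.058 (adjusted p 0.00228) and a further one by 0.19 ± 0.052 (0.0338), against 0.10 ± 0.066 in the brightest. The second also exceeded K14-TCL1, by 0.38 ± 0.052 (0.00191). A second Fzd3 probe set was higher than WT by 0.36 ± 0.087 in Tcl1-/- (0.0203) and by 0.50 ± 0.087 in K14-TCL1 (0.00676), against 0.18 ± 0.11 and 0.13 ± 0.11 in the brightest. The calls of these receptors therefore depended on the probe set. Fzd9 had differences of 0.017 and 0.033 from WT, and Fzd4 and Fzd5 lay below the filter.

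**Figure D3:**
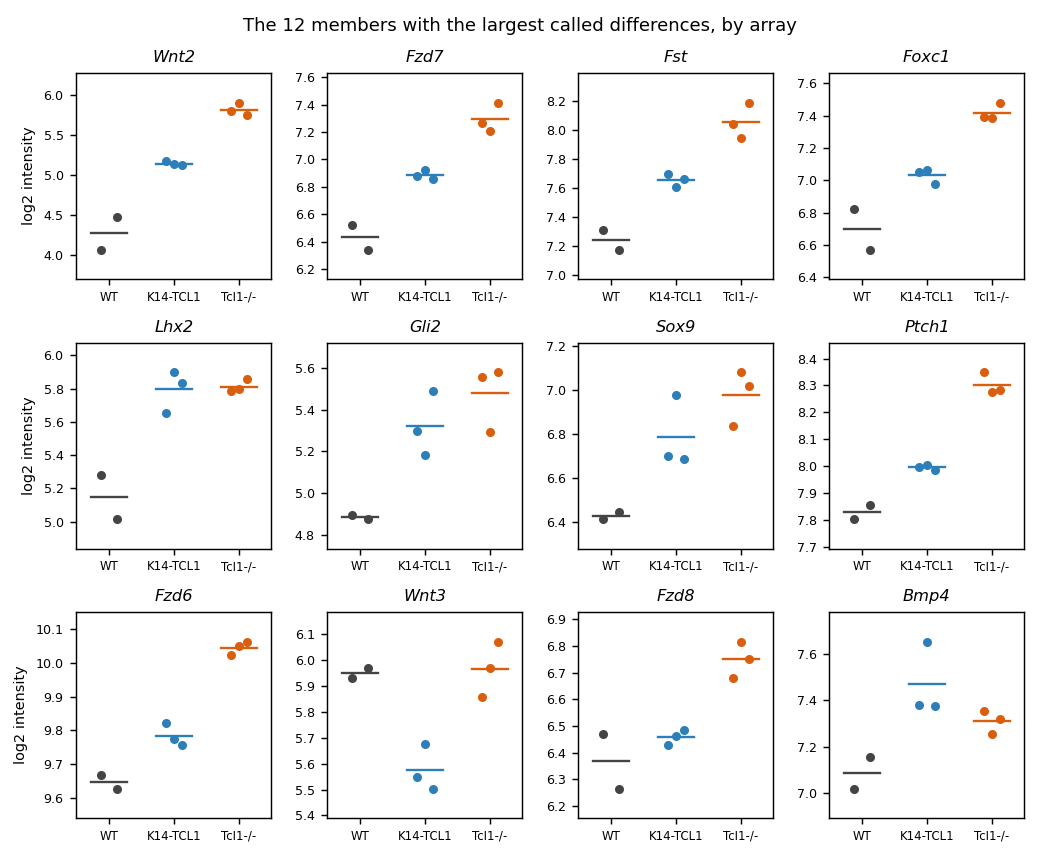
Log2 intensity (vertical axis, own scale in each panel) of 12 members with large differences, with 1 point for each array and a line at the mean of each genotype. Wnt2, Fzd7, Fst, Foxc1, Ptch1 and Fzd6 step down from Tcl1-/- to K14-TCL1 to WT, Lhx2 is at one level in both mutant genotypes, and Wnt3 is low in K14-TCL1.

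Of the 8 secreted Wnt antagonists, 4 were tested. Sfrp1, which binds Wnt proteins outside the cell, had intensities of 157 to 169 in Tcl1-/-, 152 to 173 in K14-TCL1 and 133 and 147 in WT, with no overlap between WT and either mutant genotype. Its difference from WT was 0.22 ± 0.066 in both (adjusted p 0.0374 and 0.0459). The call in Tcl1-/- was lost without any 1 Tcl1-/- array or WT replicate 2 (0.0536 to 0.238), that in K14-TCL1 without any 1 array except K14-TCL1 replicate 1 (0.0583 to 0.268), and the values of its other probe sets for Tcl1-/- vs WT ran from -0.17 to 0.14, none of them called. In K14-TCL1 vs WT 1 of them was called higher (0.28 ± 0.076, 0.0392). Dkk3, a divergent Dickkopf protein, had intensities of 41.5, 52.9 and 40.0 in Tcl1-/-, 57.3, 54.5 and 54.1 in K14-TCL1 and 61.6 and 53.8 in WT. It was lower in Tcl1-/- than in WT by -0.37 ± 0.11 (0.0424), and the call was lost on leaving out any 1 array except Tcl1-/- replicate 2 (0.0565 to 0.250). Its second probe set was lower as well, by -0.29 ± 0.083 (0.0358). Sfrp4 and Sfrp5 were not called, and Sfrp2, Dkk1, Dkk2 and Dkk4 lay below the filter.

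Axin2, a direct target of beta-catenin that feeds back on the pathway, had intensities of 359, 358 and 383 in Tcl1-/-, 299, 315 and 283 in K14-TCL1 and 302 and 295 in WT. Only the Tcl1-/- arrays stood apart: the difference was 0.30 ± 0.054 from WT (adjusted p 0.00492) and 0.30 ± 0.048 from K14-TCL1 (0.00345), while K14-TCL1 vs WT was 0.00063 ± 0.054 (0.995). The second, dim Axin2 probe set was not called (0.15 ± 0.10 against WT, 0.324). Lef1, the nuclear partner of beta-catenin in the hair matrix, lay below the filter in every array, at 13.9 to 18.2.

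Other genes of the pathway, from a list of receptors and transducers, mostly did not pass. Of 22 tested, Wls was called higher and Gsk3b lower in Tcl1-/- vs WT (9.09%, against 26.6% of all genes). Lrp5, a co-receptor, was called lower in K14-TCL1 vs WT (-0.32 ± 0.097, adjusted p 0.0465), the only call there (4.55%, against 21.5%). Wls, which carries Wnt proteins to the cell surface, exceeded WT by 0.15 ± 0.045 (0.0425) and K14-TCL1 by 0.27 ± 0.040 (0.00226), and Gsk3b, a kinase of the complex that degrades beta-catenin, was lower than WT by -0.23 ± 0.050 (0.00957). Against WT, Gsk3b was at 0.0859 without WT replicate 1, Wls was lost without Tcl1-/- replicate 1 or 3, K14-TCL1 replicate 1 or either WT array (0.0632 to 0.232), and Lrp5 without any 1 Tcl1-/- array, K14-TCL1 replicate 1 or 2 or WT replicate 1 (0.0681 to 0.290). Ctnnb1, beta-catenin itself, was higher in Tcl1-/- than in K14-TCL1 by 0.14 ± 0.031 (0.0121) and not called against WT. Of 9 tested feedback genes and secreted modulators, 3 were called higher and 1 lower than WT in each mutant genotype (44.4%, against 26.6% of all genes for Tcl1-/- and 21.5% for K14-TCL1). Nkd2, a feedback inhibitor, had intensities of 113, 116 and 124 in Tcl1-/-, 92.1, 80.8 and 89.1 in K14-TCL1 and 57.9 and 60.6 in WT, the same order as Wnt2 and Fzd7, with differences from WT of 0.99 ± 0.064 (2.1e-05) and 0.56 ± 0.064 (0.000683). Tnfrsf19, a receptor of the TNF family regulated by Wnt, was lower than WT by -0.64 ± 0.047 in K14-TCL1 (6.42e-05) and by -0.19 ± 0.047 in Tcl1-/- (0.0198, and 0.0530 to 0.133 without Tcl1-/- replicate 1 or 2 or either WT array). Apcdd1, an inhibitor of Wnt signalling in hair follicles, was higher by 0.32 ± 0.049 in Tcl1-/- (0.00194) and by 0.17 ± 0.049 in K14-TCL1 (0.0415, and 0.0600 to 0.223 without any 1 array except K14-TCL1 replicate 1). Its probe set is of the _x_at type, which can share sequence with other transcripts, and without such probe sets the K14-TCL1 difference was 0.090 (0.246).

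Of the Hedgehog members, Shh itself, the ligand, lay below the filter in every array, at 8.74 to 10.3. Its receptor Ptch1, which is also a target of the pathway, had intensities of 326, 309.9 and 311 in Tcl1-/-, 255, 257 and 254 in K14-TCL1 and 223 and 232 in WT. The 3 genotypes were separate, with differences of 0.47 ± 0.039 for Tcl1-/- vs WT (adjusted p 7.02e-05), 0.31 ± 0.035 for Tcl1-/- vs K14-TCL1 (0.000653) and 0.17 ± 0.039 for K14-TCL1 vs WT (0.0185, and 0.133 and 0.0539 without WT replicates 1 and 2). A second Ptch1 probe set was called in Tcl1-/- vs WT alone (0.23 ± 0.062, 0.0336).

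Gli2, a transcription factor that carries the Hedgehog signal, had intensities of 47.1, 39.2 and 47.8 in Tcl1-/-, 39.3, 36.3 and 45.0 in K14-TCL1 and 29.7 and 29.3 in WT. Both WT arrays lay under the level needed for testing, as for Wnt2. Tcl1-/- exceeded WT by 0.59 ± 0.11 (adjusted p 0.00422) and K14-TCL1 by 0.44 ± 0.11 (0.0201, and 0.0945 and 0.0990 without WT replicates 1 and 2). Gli1, a target of the pathway, had intensities of 50.1, 44.0 and 48.1 in Tcl1-/-, 37.8, 34.6 and 41.8 in K14-TCL1 and 36.3 and 44.2 in WT. The WT arrays overlapped both other genotypes, and only Tcl1-/- vs K14-TCL1 passed, at 0.32 ± 0.093 (0.0356), a call lost without replicate 1 or 3 of Tcl1-/- or replicate 1 or 2 of K14-TCL1 (0.0848 to 0.111). Smo, the transducer that Ptch1 holds in check, had intensities of 599, 601 and 579.9 in Tcl1-/-, 532, 518 and 494 in K14-TCL1 and 551 and 539.9 in WT. Here too the difference lay between Tcl1-/- and K14-TCL1 (0.21 ± 0.038, 0.00622), with WT between them and not called against either.

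Of 5 further Hedgehog genes tested, Sufu, an inhibitor that binds GLI proteins, was higher in Tcl1-/- than in K14-TCL1 by 0.19 ± 0.033 (adjusted p 0.0047) and exceeded WT by 0.13 ± 0.037 (0.0309, and 0.0680 to 0.146 without Tcl1-/- replicate 1 or 2 or either WT array). Gas1, a co-receptor of Shh, was lower in K14-TCL1 by -0.19 ± 0.042 against WT (0.016, and 0.101 and 0.0720 without WT replicates 1 and 2), and the other 3 did not pass in any comparison.

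Of the 11 members named Bmp, 6 were tested, and 4 of them were called, each in 1 comparison. Called were 2 in Tcl1-/- vs WT (33.3%, against 26.6% of all genes) and 1 in K14-TCL1 vs WT (16.7%, against 21.5%). The last was called in Tcl1-/- vs K14-TCL1 (16.7%, against 26.6%). Bmp4, a ligand that acts on resting follicles, had intensities of 164, 153 and 160.0 in Tcl1-/-, 167, 201 and 166 in K14-TCL1 and 129.8 and 143 in WT. Both mutant genotypes lay above WT without overlap, but K14-TCL1 alone passed, at 0.38 ± 0.087 (adjusted p 0.0165, and 0.122 without WT replicate 1), against 0.22 ± 0.087 (0.0965) in Tcl1-/-. Bmp2, another ligand of resting skin, had intensities of 219 to 233 in Tcl1-/-, 211 to 239 in K14-TCL1 and 192 and 201 in WT, and was higher in Tcl1-/- by 0.21 ± 0.061 (0.0358, and 0.0883 to 0.187 without Tcl1-/- replicate 1 or 2 or either WT array). Bmp7 was lower in Tcl1-/- than in K14-TCL1 by -0.19 ± 0.042 (0.0132), a difference that its other 2 probe sets did not show as a call (-0.11 and 0.08). Bmp1, the protease, was lower in Tcl1-/-, by -0.14 ± 0.045 against WT (0.0469), a call lost on leaving out any 1 array except Tcl1-/- replicate 1 (0.0503 to 0.191). Bmp10 and Bmp2k were not called (a second Bmp2k probe set was lower in Tcl1-/- than in K14-TCL1, -0.19, 0.0479), and Bmp5, Bmp6, Bmp8a, Bmp8b and Bmp15 lay below the filter.

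Fst encodes follistatin, which binds and blocks activin and some BMPs. Its intensities were 264, 246 and 292 in Tcl1-/-, 208, 195 and 203 in K14-TCL1 and 159 and 145 in WT. The groups were fully separate, with differences of 0.82 ± 0.073 for Tcl1-/- vs WT (adjusted p 0.000111), 0.41 ± 0.073 for K14-TCL1 vs WT (0.00571, and 0.0523 without WT replicate 2) and 0.40 ± 0.065 for Tcl1-/- vs K14-TCL1 (0.00329). Of the other antagonists, Grem1 was near the filter and not called (-0.13 and -0.16 against WT), and Nog, which encodes noggin, lay below it at 15.0 to 20.8.

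The 3 Id genes, which encode inhibitors of DNA binding and are targets of BMP signals, did not move together. Id1 had intensities of 454, 471 and 455 in Tcl1-/-, 474, 432 and 478 in K14-TCL1 and 428 and 442 in WT, and was not called (0.080 ± 0.051 and 0.082 ± 0.051 against WT). Id2 had intensities of 247, 252 and 235 in Tcl1-/-, 264, 241 and 236 in K14-TCL1 and 202 and 206 in WT. Both mutant genotypes lay above WT, by 0.27 ± 0.055 (adjusted p 0.00904) and 0.28 ± 0.055 (0.00951), and without WT replicate 1 neither passed (0.0654 and 0.0694). Id3 had intensities of 238, 251 and 246 in Tcl1-/-, 227, 229 and 234 in K14-TCL1 and 287 and 286 in WT. It went the other way, lower than WT by -0.23 ± 0.038 (0.00332) and by -0.31 ± 0.038 (0.00082). A dim Id2 probe set was higher than WT in K14-TCL1 (0.49 ± 0.096, 0.0117) but lower in Tcl1-/- than in K14-TCL1 (-0.59 ± 0.086, 0.00266), unlike the brightest (-0.013).

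From the list of other BMP and activin genes, 7 of 24 tested were called higher and 1 lower in Tcl1-/- vs WT (33.3%, against 26.6% of all genes), and 4 higher and 2 lower in K14-TCL1 vs WT (25%, against 21.5%), shares near those of all genes. Inhbb, a subunit of activin B and so a target of follistatin binding, was higher than WT by 0.73 ± 0.057 in Tcl1-/- (adjusted p 5.66e-05) and by 0.42 ± 0.057 in K14-TCL1 (0.00166). Id4, the fourth Id gene, had intensities of 1958, 2066 and 2064 in Tcl1-/-, 1509.5, 1472 and 1431 in K14-TCL1 and 1504 and 1451 in WT. Tcl1-/- was thus alone at a high level, by 0.46 ± 0.043 against WT (0.000148), as Axin2 was. Acvr2b, an activin receptor, was higher than WT in both (0.41 ± 0.082, 0.00715, and 0.48 ± 0.082, 0.00502).

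The regulators of the bulge stem cells were higher in both mutant genotypes or were not called. Foxc1, which holds activated stem cells of the mouse bulge in quiescence, had intensities of 168, 167 and 179 in Tcl1-/-, 133, 134 and 126 in K14-TCL1 and 113 and 95.2 in WT. The groups were separate, with differences of 0.72 ± 0.072 for Tcl1-/- vs WT (adjusted p 0.000203), 0.33 ± 0.072 for K14-TCL1 vs WT (0.0129, and 0.0729 without WT replicate 2) and 0.39 ± 0.064 for Tcl1-/- vs K14-TCL1 (0.00368). The second Foxc1 probe set gave 0.70, 0.21 and 0.49, each called.

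Lhx2, a transcription factor that maintains follicle stem cells, had intensities of 55.1, 55.6 and 57.9 in Tcl1-/-, 50.4, 59.7 and 57.1 in K14-TCL1 and 38.9 and 32.3 in WT. The mutant genotypes overlapped each other (0.016 ± 0.080, adjusted p 0.905) and both lay above WT, by 0.66 ± 0.090 (0.00108) and 0.65 ± 0.090 (0.00182). Sox9, needed to form and keep the bulge, had intensities of 114, 135 and 129.5 in Tcl1-/-, 104, 126 and 103 in K14-TCL1 and 85.1 and 87.0 in WT. It was higher than WT by 0.55 ± 0.10 (0.00442) and 0.36 ± 0.10 (0.0328, and 0.150 and 0.117 without WT replicates 1 and 2), and by 0.56 and 0.50 in its second probe set, both called. Nfatc1, a factor of quiescent stem cells, lay between 144 and 166 in every array and was not called (0.024 ± 0.058 and -0.035 ± 0.058 against WT). Lgr5, a marker of cycling follicle stem cells, was near the filter at 31.8 to 37.7 and was not called, and Cd34, a surface marker of the mouse bulge, lay below it at 9.02 to 10.9.

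Among 23 other stem cell and hair germ genes tested, 10 were called higher and 4 lower in Tcl1-/- vs WT (60.9%, against 26.6% of all genes), and 5 higher and 1 lower in K14-TCL1 vs WT (26.1%, against 21.5%). Krt15, a bulge and basal keratin, was higher than WT by 0.44 ± 0.034 (adjusted p 5.19e-05) and 0.52 ± 0.034 (3.18e-05). Lrig1, a marker of junctional stem cells, was higher in Tcl1-/- by 0.73 ± 0.068 (0.000134), and Foxp1, a stem cell transcription factor, was higher by 0.41 ± 0.042 (0.00025) and 0.25 ± 0.042 (0.00469). The 4 lower in Tcl1-/- were Trps1 (-0.56 ± 0.082, 0.00159), Plet1 (-0.27 ± 0.040, 0.00168), Cdh3 (-0.20 ± 0.046, 0.014) and Ovol1 (-0.14 ± 0.034, 0.0168, and 0.0508 to 0.0994 without Tcl1-/- replicate 1 or 2 or either WT array). Ovol1 was also the 1 lower in K14-TCL1 (-0.13 ± 0.034, 0.0277, and 0.0504 to 0.140 without K14-TCL1 replicate 1 or 3 or either WT array). The summed intensity of the 7 bulge and outer root sheath markers, 1 of them below the filter, was 13127 to 13442 in Tcl1-/-, 13648 to 13965 in K14-TCL1 and 11513 to 11543 in WT. The sum was led by Krt15, and the single markers differed. Of the 6 tested, Krt15 and Lrig1 were called higher and Krt17, Krt75 and Cdh3 lower in Tcl1-/- vs WT (83.3%, against 26.6% of all genes). Krt15 alone was called in K14-TCL1 vs WT (16.7%, against 21.5%). The calls of Krt17 and Cdh3 were lost without either WT array (0.0565 to 0.0880), that of Krt75 without Tcl1-/- replicate 1 or 2, K14-TCL1 replicate 3 or either WT array (0.0592 to 0.180). Sebocyte markers (4 of 5 on the array) summed to 7388 to 7459, 6118 to 6488 and 5877 to 5902, and Langerhans cell markers (5 of 5) to 7551 to 7894, 6259 to 6299.7 and 5533 to 5688, in the order of the 6 graded members. Epidermal T cell markers (3 of 5 on the array) summed to 769 to 784, 796 to 821 and 621 in both WT arrays. All 3 were called higher than WT in both mutant genotypes (100%, against 26.6% and 21.5% of all genes). The part of these cell types in the members' differences was not tested.

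Of the 5 transcription factors of hair matrix and shaft, 3 were called higher in Tcl1-/- than in K14-TCL1 (60%, against 26.6% of all genes). In Tcl1-/- vs WT 1 was called higher (20%, against 26.6%), and none was called in K14-TCL1 vs WT (against 21.5%). Foxn1, the gene mutated in nude mice, had intensities of 121, 141 and 131 in Tcl1-/-, 98.0, 108 and 107 in K14-TCL1 and 116 and 95.8 in WT. Tcl1-/- lay above all other arrays, by 0.32 ± 0.083 against K14-TCL1 (adjusted p 0.0226) and 0.31 ± 0.093 against WT (0.0391). The first call was lost without Tcl1-/- replicate 2 or 3 or K14-TCL1 replicate 1 (0.0620 to 0.0730), the second without Tcl1-/- replicate 2 or 3, K14-TCL1 replicate 3 or WT replicate 2 (0.0542 to 0.265).

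Msx2, which maintains hair shaft differentiation in mice, had intensities of 89.6, 93.6 and 87.9 in Tcl1-/-, 70.7, 76.8 and 79.4 in K14-TCL1 and 85.9 and 76.5 in WT. It was higher in Tcl1-/- than in K14-TCL1 by 0.26 ± 0.059 (adjusted p 0.014). Dlx3, a factor of hair and epidermal differentiation, had intensities of 282, 273 and 279 in Tcl1-/-, 247, 260.2 and 241 in K14-TCL1 and 253 and 256 in WT. The Tcl1-/- arrays were highest, by 0.16 ± 0.038 against K14-TCL1 (0.0169, and 0.0514 to 0.0616 without replicate 1 or 3 of either genotype), and a second Dlx3 probe set was not called there (0.11, 0.309). Hoxc13, a regulator of hair keratin genes, had intensities of 54.9, 56.7 and 41.2 in Tcl1-/-, 39.1, 52.1 and 52.7 in K14-TCL1 and 38.5 and 39.5 in WT. With replicates this far apart it was not called (0.37 ± 0.16, 0.128, and 0.28 ± 0.16, 0.243, against WT), and neither was Msx1 (66.4 to 74.4 over all arrays). The 9 hair shaft keratins on the array, 3 of them below the filter, summed to 506 to 543 in Tcl1-/-, 559 to 569 in K14-TCL1 and 432 to 453 in WT, an order that differs from that of Foxn1, Msx2 and Dlx3.

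Ectodysplasin and FGF members were weakly read. Eda, the ectodysplasin ligand, was the only 1 of 4 tested and was not called (-0.13 ± 0.085 and -0.083 ± 0.085 against WT). Edar, its receptor in hair placodes, lay at 19.1 to 22.0, and Fgf5, the signal that ends anagen, at 14.4 to 17.6. Fgf18, which keeps follicles at rest, lay at 20.2, 18.4 and 17.6 in Tcl1-/-, 14.9, 17.6 and 16.1 in K14-TCL1 and 15.3 and 12.8 in WT, all below the filter and without a test. Of 9 other genes of these pathways tested, 3 were called higher and 1 lower in Tcl1-/- vs WT (44.4%, against 26.6% of all genes), and none higher and 1 lower in K14-TCL1 vs WT (11.1%, against 21.5%). Against WT in Tcl1-/-, Fgfr1 and Fgfr2, the FGF receptors, were each higher by 0.29 (SE 0.040 and 0.042, adjusted p 0.00121 and 0.00148), and Fgfbp1, which releases FGFs from the matrix, was lower by -0.30 ± 0.040 (0.00106), and by -0.31 ± 0.040 in K14-TCL1 (0.00129).

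**Figure D4:**
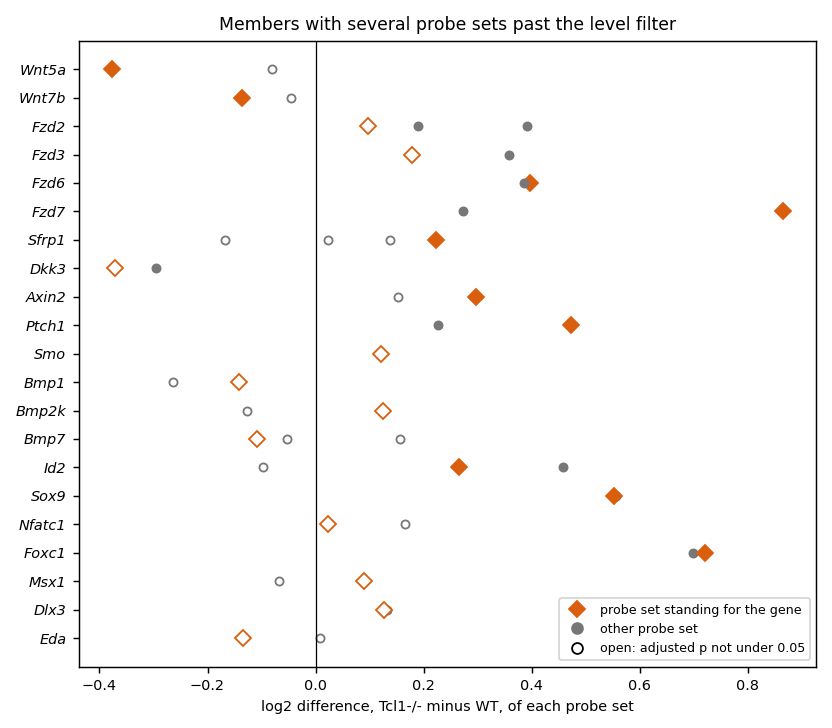
Log2 difference between Tcl1-/- and WT (horizontal axis) of each probe set above the filter for the 21 members that have several, with diamonds for the probe set used, circles for the others and open symbols for those not called when p is adjusted over all probe sets. The probe sets of Foxc1, Sox9 and Fzd6 lie together, and those of Fzd7, Ptch1 and Wnt5a lie apart. Those of Sfrp1, Bmp7, Bmp2k, Id2, Msx1 and Eda lie on both sides of 0.

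Within the rule's 75 genes, 26 were read by several probe sets. The probe set used and the others were called in opposite directions for none of the members in Tcl1-/- vs WT, as the plot of probe sets by member shows, while the size of the difference varied, as for Fzd7 (0.87 and 0.27) and Ptch1 (0.47 and 0.23). Over all 25 members below the filter, intensities ran from 7.49 for Sfrp2 to 31.0 for Wnt8b. Of the 50 tested, 46 were above the filter in every genotype, and Wnt2, Gli2, Grem1 and Wnt7a in part of them.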

How the data were processed

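Total RNA of epidermal sheets was hybridized to Affymetrix mouse genome arrays, and the authors deposited RMA intensity values (background correction, quantile normalization and probe summary) on the linear scale (no source used here names the RMA version). Deposited intensities were log2-transformed here without a pseudocount. Control probe sets (64) and those with no name (492) or several names (578) were left out, and names of the other 21556 were updated with RefSeq GRCm38.p6. The brightest probe set on average stood for a gene. The 9731 genes with a genotype mean of at least 5 (log2) were fitted with limma 3.58.1 in R 4.3.3, 1 mean for each genotype and a spread shared by the 8 arrays (5 residual and 3.32 prior degrees of freedom), with Benjamini-Hochberg adjustment. Arrays were taken as separate animals, as the methods state, with 2 or 3 animals per genotype. The p-values rest on a spread between animals pooled over the 3 genotypes and drawn toward that of all genes tested.

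The members, gene lists and rules were chosen with earlier results of these data known. Values by array are given for the 24 called members with the largest differences of at least 0.2 and for the core readouts of each pathway, other probe sets where their call differs, and up to 3 genes of a further list by smallest p. Fzd1, Wnt10b, Sfrp1, Bmp1, Bmp2 and Bmp7, and Lrp5, were added because they were called, and the genes called lower from the stem cell and bulge lists after their values were seen. Alternatives changed the filter, probe set, scaling, variance model, call rule, block and arrays. The fit was tested on simulated data. Plots were made in Python 3.11.15 (matplotlib 3.10.9).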

Additional observations from a re-analysis of the deposited data

How the results depend on the processing

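Of 60 calls of members, 36 kept direction and threshold under every alternative that could be run for them, and no direction turned in 1124 comparisons of a call with an alternative. With the study's criteria (1.4-fold or more from the median on 20% of arrays, unadjusted p under 0.001) 4 members were called in Tcl1-/- vs WT, 3 in K14-TCL1 vs WT, and 4 in Tcl1-/- vs K14-TCL1, and 5 passed the fold criterion at all. Leaving out 1 array gave 15 to 24, 9 to 17 and 15 to 20 called members, the lowest without a WT array in both comparisons with WT. Other filters, probe sets, scalings and variance models kept the counts within 1.5 times of those given. A filter on the mean over all arrays, chosen after seeing the data, called 22, 17 and 21. Wnt2 and Gli2 passed this filter too, so it does not show the counts without members tested through their high genotypes. The share of all genes called under each alternative is not given here. The counts therefore do not show whether members or all genes lost calls.

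Deviations from the genotype mean correlated at -0.0609 to 0.0569 between samples with the same replicate number and at -0.0569 to 0.0562 between others. These values show no shared shift but cannot exclude that animals were paired. The 2 WT arrays deviate as mirror images, so part of the values was fixed in advance. With the replicate number as a block 16, 14 and 18 members were called, also given without the share of all genes. Low intensities hold background, which compresses the differences of dim members such as Wnt2 and Gli2, and 25 members were too dim to test.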
